A study of Mus musculus with 4 samples.

Results

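The small leucine-rich proteoglycans are secreted matrix proteins, and 10 of their genes were followed here: Dcn, Bgn, Aspn, Lum, Fmod, Prelp, Omd, Ogn, Chad and Podn. The members were taken by symbol from the gene lists of all 4 libraries, where each symbol had 1 row, out of 28001 features. Single-cell RNA was captured from sorted mouse heart cells with the Chromium 3′ v2 chemistry, which counts unique molecular identifiers (UMIs), 1 per captured transcript. All mice were on a C57BL/6 background, and their age is not given in the sources used here. The 2 tdTomato libraries came from Hic1 CreERT2 tdTomato animals, where Cre under the control of Hic1 marks the cells that expressed this gene at induction and their progeny. One of them pooled 3 undamaged hearts, and the other pooled 3 hearts taken 7 days after ligation of the left anterior descending coronary artery, so each state was 1 library with no replicate check. The citrine library held cells with a Hic1 citrine reporter from 3 undamaged hearts, each marked with a hashtag antibody. The PDGFRa library held cells with the nuclear reporter PDGFRa H2BGFP (B6.129S4-Pdgfratm11(EGFP)Sor/J) from 4 hashtagged hearts, 2 undamaged and 2 taken 7 days after ligation. The labels do not tie the PDGFRa hashtags to a state, so its hearts are given here by number only and enter no comparison between states.

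Small leucine-rich proteoglycans have a core of leucine-rich repeats that binds collagen fibrils and sets how fibrils grow and pack, and several carry chondroitin, dermatan or keratan sulfate chains. They are also known to hold growth factors, transforming growth factor beta among them, and free decorin and biglycan can bind cell receptors. In the heart they are made mainly by fibroblasts and form part of both the resting matrix and the scar. By sequence they fall into classes: decorin (Dcn), biglycan (Bgn) and asporin (Aspn) form class I, lumican (Lum), fibromodulin (Fmod), prolargin (Prelp) and osteomodulin (Omd) class II, osteoglycin (Ogn) class III, and chondroadherin (Chad) and podocan (Podn) belong to the non-canonical classes.

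Several members are neighbours in the genome (GENCODE M21 on GRCm38). Aspn (ENSMUSG00000021388, chr13:49544443-49567565), Omd (ENSMUSG00000048368, chr13:49582462-49592822) and Ogn (ENSMUSG00000021390, chr13:49608046-49624501) lie in a row on the plus strand, with gaps of 14.9 and 15.2 kb. All of these lie inside Cenpp, a centromere protein gene on the opposite strand, and of them Aspn shares exon bases with Cenpp. Dcn (ENSMUSG00000019929, chr10:97479609-97518143) and Lum (ENSMUSG00000036446, chr10:97565128-97572703) are 47.0 kb apart, and Prelp (ENSMUSG00000041577, chr1:133910304-133921414, minus strand) and Fmod (ENSMUSG00000041559, chr1:134037254-134048277) are 115.8 kb apart. Prelp exons overlap the antisense gene Gm15851. Chad (ENSMUSG00000039084, chr11:94565047-94569127) lies inside Acsf2 on the opposite strand without sharing an exon, Bgn (ENSMUSG00000031375) spans chrX:73483602-73495933, and Podn (ENSMUSG00000028600, chr4:108014791-108096445) is on the minus strand. Whether the counting used strand is not given in the sources used here. Cenpp and Acsf2 were counted at 1.16 to 1.98 and 1.70 to 10.2 UMIs per 1000000 in fibroblast-like cells.

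The 200 bases before the RefSeq start (GRCm38.p6) could be read for 8 of the 10 members, and 4 are shown because the results turn on these genes: in the undamaged tdTomato library most UMIs of Fmod and Chad lay in the same small cluster of fibroblasts, and Aspn and Bgn were both higher in activated fibroblasts. Capitals mark exact matches, on either strand, to a TATA box (TATAAA), an AP-1 element (TGANTCA), a TEAD element (CATTCC) or a SMAD element (CAGAC).
Fmod (chr1:134037054-134037253, plus strand): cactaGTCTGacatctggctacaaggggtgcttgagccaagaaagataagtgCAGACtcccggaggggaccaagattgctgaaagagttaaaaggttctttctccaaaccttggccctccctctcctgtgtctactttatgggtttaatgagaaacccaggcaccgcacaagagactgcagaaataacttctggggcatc
Chad (chr11:94564847-94565046, plus strand): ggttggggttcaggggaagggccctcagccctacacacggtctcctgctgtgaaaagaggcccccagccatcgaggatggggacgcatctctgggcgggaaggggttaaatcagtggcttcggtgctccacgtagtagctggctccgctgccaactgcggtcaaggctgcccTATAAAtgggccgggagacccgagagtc
Aspn (chr13:49544243-49544442, plus strand): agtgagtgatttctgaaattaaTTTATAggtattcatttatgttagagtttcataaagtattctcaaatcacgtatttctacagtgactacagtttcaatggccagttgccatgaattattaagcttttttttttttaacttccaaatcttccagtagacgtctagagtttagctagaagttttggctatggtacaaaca
Bgn (chrX:73483401-73483600, plus strand): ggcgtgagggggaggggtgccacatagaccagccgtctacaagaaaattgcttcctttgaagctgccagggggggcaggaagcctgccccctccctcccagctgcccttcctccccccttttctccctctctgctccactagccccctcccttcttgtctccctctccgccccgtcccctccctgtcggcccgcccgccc
The Fmod window held 2 SMAD matches, the Chad window 1 TATA box, the Aspn window 1 TATA box on the other strand, and the Bgn window none of the 4 motifs. Over 32851 windows of the same length, 9.96% held the TATA box, 5.48% the AP-1, 10.1% the TEAD and 35.5% the SMAD letters. G and C made up 49.0% of the Fmod, 62.5% of the Chad, 31.0% of the Aspn and 67.0% of the Bgn window.

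After filtering, the undamaged tdTomato library kept 2786 cells, the ligated one 4263, the citrine library 10838 and the PDGFRa library 12567, with 9821126, 17963438, 96595106 and 120683114 UMIs and a median of 3453, 3668, 8038.5 and 7729 per cell. Pairs of libraries shared 0 to 36 cell barcodes. Clusters were named from marker genes, with the members left out of the clustering. Fibroblast-like cells (Pdgfra, Col1a1, Tcf21 and others) made up 87.3%, 73.5%, 97.9% and 100% of the libraries in that order, and the rest was mostly pericyte-like and smooth muscle-like. Within them, clusters were named activated-like for Postn and most of its companion markers, Wif1-like for Wif1 and its companions, Sca1-high-like for Ly6a and Pi16, and interferon-like for Isg15 and Ifit3. These names cover unlike clusters. Activated-like cells held Cthrc1 at 16.2 CPM (UMIs per 1000000 UMIs of the cells) in the undamaged tdTomato and 23.8 in the citrine library but at 1638 in the ligated tdTomato and 1769 in the PDGFRa library, and Postn at 946 and 1425 against 4340 and 5842 CPM. Wif1-like cells held Wif1 at 908 CPM in the undamaged tdTomato library, where it led the cluster, and at 67.5 and 39.4 CPM in the citrine and PDGFRa libraries, whose clusters were led by Igfbp3 and Cytl1. The remaining fibroblast-like cells are called other. The ligated tdTomato library had 398 activated-like cells and no Wif1-like cells, against 248 and 107 in the undamaged one.

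In fibroblast-like cells the 10 members together took 3.40% of all UMIs in the undamaged tdTomato library, 2.54% in the ligated one, 2.75% in the citrine and 2.34% in the PDGFRa library. Dcn alone supplied 64.9% to 78.9% of these. Levels are given as CPM of the class. A 3′ UMI is counted per transcript and not per base, so levels are set side by side between genes. Differences between genes in capture were not tested.

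Class I held the most abundant member. Dcn, the prototype that binds collagen and transforming growth factor beta, stood at 26840 CPM in undamaged tdTomato, 17781 in ligated tdTomato, 20912 in citrine and 15163 in PDGFRa fibroblast-like cells. Bgn, its close relative, stood at 2339, 3513, 2488 and 2713 CPM in the same order. Aspn, a class I member without a typical chain attachment site, stood at 369, 669, 416 and 1124 CPM. Dcn was therefore the first of the members in all 4 libraries, and Bgn the second except in undamaged tdTomato cells, where Lum was above it.

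In class II, Lum, a keratan sulfate carrier, stood at 2785, 2117, 1980 and 2346 CPM. Prelp, which binds basement membrane and collagen, stood at 486, 363, 496 and 235 CPM. Omd, known from bone matrix, stood at 46.6, 13.2, 24.8 and 20.6 CPM. Fmod, a regulator of collagen fibril width, stood at 37.9, 38.4 and 36.9 CPM in the tdTomato and PDGFRa libraries and at 3.25 CPM in the citrine library, the lowest of the 4.

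Of the other classes, Ogn stood at 1036, 836, 1129 and 1678 CPM and Podn, a member known from kidney and vascular smooth muscle, at 64.7, 57.0, 51.8 and 48.1 CPM. Chad, a cartilage protein that binds collagen and integrins, stood at 3.74, 0, 0.964 and 0.232 CPM and was the least abundant member in every library. In the ligated tdTomato library no Chad UMI was counted in fibroblast-like cells.

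In pericyte-like and smooth muscle-like cells, together called mural, most members were lower, and Aspn was the exception. Pericyte-like cells of the undamaged tdTomato, ligated tdTomato and citrine libraries held Aspn at 1458, 1062 and 724 CPM, and smooth muscle-like cells of the tdTomato libraries at 936 and 782 CPM. Dcn stood at 1175, 1909 and 8481 CPM in pericyte-like and at 378 and 634 CPM in smooth muscle-like cells, the citrine value including cells with several hashtags or none. Bgn stood at 690, 1992 and 1163 CPM in pericyte-like and at 477 and 914 CPM in smooth muscle-like cells. In both mural classes of the undamaged tdTomato library Aspn was thus the most abundant member, while Bgn led, close to Dcn, in ligated pericyte-like cells and Dcn led in citrine ones. Chad had no UMI in pericyte-like cells of any library. As a background from free RNA, 13 cells of undamaged tdTomato hearts with endothelial markers held 8 Dcn UMIs, equal to 312 CPM with a 95% counting interval of 135 to 614. The Dcn value of smooth muscle-like cells in the same library lay within that interval.

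**Figure D1:**
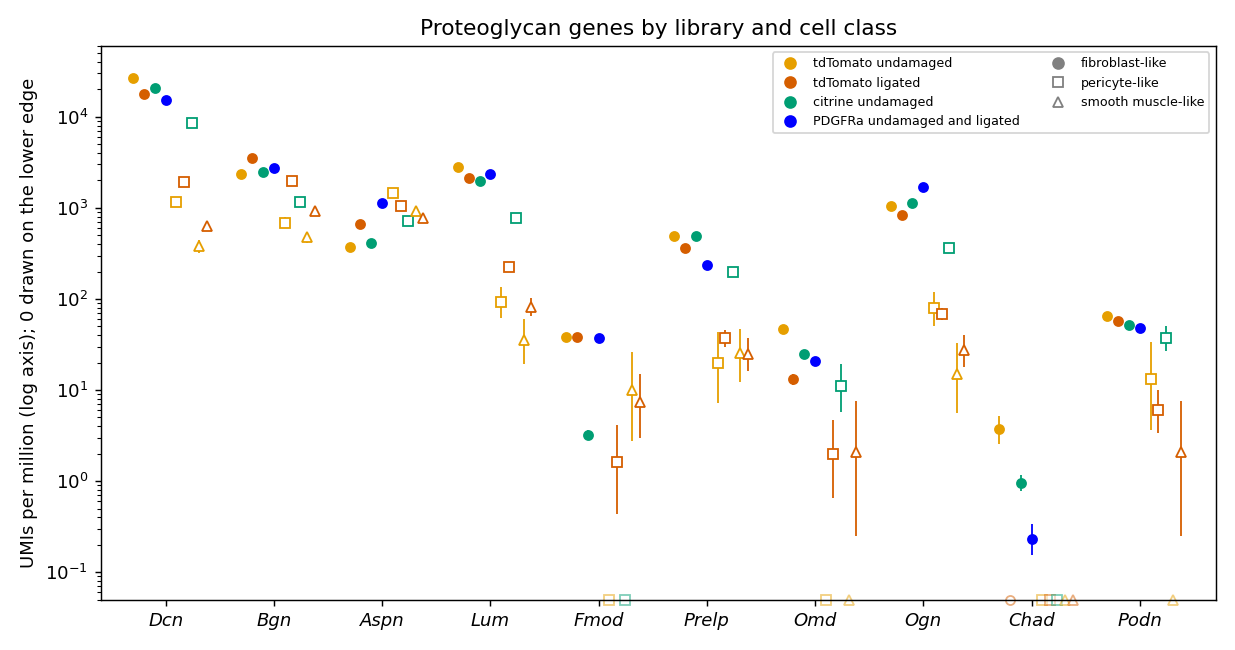
Level of each member in CPM, scaled to the total of each class (log axis), with colour for the library, filled circles for fibroblast-like, squares for pericyte-like and triangles for smooth muscle-like cells, and lines for 95% counting intervals. Values of 0 are drawn on the lower edge. Aspn is the member whose mural cell values sit above the fibroblast-like value in tdTomato cells, with 1458 against 369 CPM in the undamaged library.

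The ligated and undamaged tdTomato libraries were then compared over their fibroblast-like cells. Bgn and Aspn were higher in the ligated library, Dcn, Lum, Prelp, Ogn, Omd, Chad and Podn were lower, and Fmod was level. Of the 10 members, 0 were over 2-fold higher and 2, Omd and Chad, over 2-fold lower, beside 2.93% of 12324 features higher and 4.07% lower by that rule. The median log2 ratio was -0.35 over the members and -0.06 over all features. With 1 library of 3 pooled hearts a state, no test can be made, and the intervals below cover counting error only.

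Aspn was 1.81 times (95% interval 1.74 to 1.89) and Bgn 1.50 times (1.48 to 1.53) as high in the ligated library. Dcn stood at 0.662 of its undamaged level (0.659 to 0.666), Prelp at 0.747 (0.718 to 0.778), Lum at 0.760 (0.748 to 0.773), Ogn at 0.808 (0.786 to 0.830) and Podn at 0.881 (0.791 to 0.981). The class I members therefore did not go one way, since Dcn was lower while its relatives Bgn and Aspn were higher. Omd was 3.52-fold lower (2.97 to 4.20), from 46.6 to 13.2 CPM. Chad had 34 UMIs in the undamaged and 0 in the ligated library, at least 18.1-fold lower when the ligated library is set at 3 UMIs. Fmod had 345 and 557 UMIs, a ratio of 1.01 (0.883 to 1.16). Summed markers of pericytes in these cells were 227 CPM undamaged and 298 ligated, those of smooth muscle 153 and 280, those of endothelium 35.5 and 27.3 and those of macrophages 10.6 and 8.81. Those of fibroblasts themselves were 57403 CPM undamaged and 28598 ligated, and the part of these lists in the ratios was not tested.

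The makeup of the fibroblast-like cells moved with several of these ratios. Without the activated-like cells Aspn stood at 316 CPM undamaged and 376 CPM ligated, a log2 ratio of 0.25 in place of 0.86, and Podn went from -0.18 to 0.06. Without them Fmod stood at 37.3 and 4.77 CPM, a ratio of 0.128. Without the Wif1-like cells, which were called in the undamaged library alone, Fmod stood at 8.91 and 38.4 CPM, a ratio of 4.30. The near equal Fmod totals of the tdTomato libraries thus came from different subsets of cells.

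**Figure D2:**
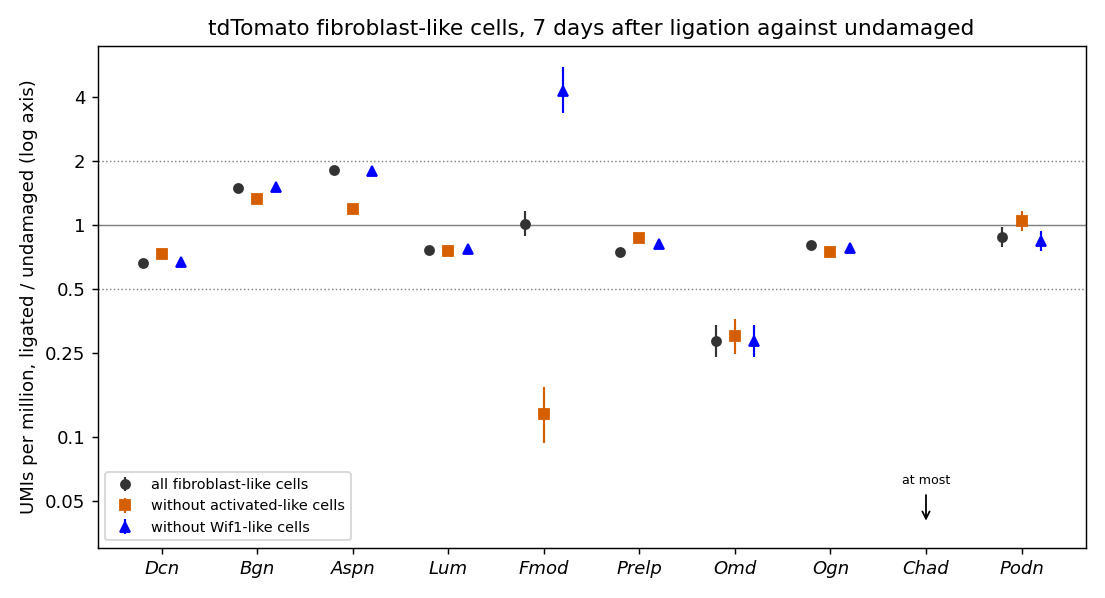
Ratio of the level in the ligated to that in the undamaged tdTomato library (log axis) for each member, over all fibroblast-like cells, without activated-like cells and without Wif1-like cells, with lines for 95% counting intervals and dotted lines at 2-fold either way. The arrow on Chad marks an upper bound, since the ligated library had 0 UMIs. Fmod sits at 1.01 over all cells and moves to 0.128 or 4.30 when a subset is left out.

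Split by subset, Fmod and Chad were the most unevenly spread members. In the undamaged tdTomato library 268 of 345 Fmod UMIs (77.7%) lay in the 107 Wif1-like cells. These were 4.40% of fibroblast-like cells and held Fmod at 583 CPM (516 to 658). Among all fibroblast-like cells of that library 87 held Fmod, and 10 of them held 49.9% of its UMIs. In the ligated library 10 of 169 such cells held 25.3%. The counting intervals, here and on the Fmod ratios above, do not cover this concentration in few cells. In the ligated library 504 of 557 Fmod UMIs (90.5%) lay in activated-like cells, 12.7% of the cells, at 148 CPM. In the PDGFRa library 76.7% of Fmod UMIs lay in activated-like cells, at 87.9 CPM, and 2.62% in Wif1-like cells, at 16.1 CPM. The citrine library held Fmod at 15.2 CPM in Wif1-like and 12.8 CPM in activated-like cells. The Fmod level of the cells named Wif1-like was thus highest in the undamaged tdTomato library among the 3 libraries that had them, which is also the library with the most Wif1 in these cells, so unlike clusters stand side by side here.

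Most Chad UMIs lay in Wif1-like cells in the undamaged tdTomato and citrine libraries, but not in the PDGFRa library. Wif1-like cells held 32 of its 34 UMIs in the undamaged tdTomato library, at 69.7 CPM. In the citrine library they held 59 of 92 UMIs (64.1%), and the other 33 lay in activated-like cells. In the PDGFRa library 13 of 28 Chad UMIs lay in Wif1-like and 10 in activated-like cells. The Chad counts rested on few cells: 12 in the undamaged tdTomato library, 6 in the citrine library and 14 in the PDGFRa library. In the citrine library 1 Wif1-like cell held 43 UMIs (46.7%). In the PDGFRa library 2 and 5 activated-like cells of hearts 1 and 2 held Chad, and 2 and 1 Wif1-like cells of hearts 3 and 4. In the undamaged tdTomato library 10 of the 12 cells with Chad also held Fmod, against 77 of the 2421 other fibroblast-like cells (3.18%), at a median of 4112 and 3649 UMIs per cell. The same held for 4 of 6 cells against 1.27% of 10603 in the citrine library, at 9004 and 8134 UMIs, and for 10 of 14 against 12.0% of 12553 in the PDGFRa library, at 15720 and 7726 UMIs. As a background, 2 of 161 smooth muscle-like cells (1.24%, median 2454 UMIs) of the undamaged tdTomato library held an Fmod UMI. These shares are descriptions of single libraries, and depth differed between the cells with and without Chad in the PDGFRa library.

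Wif1-like cells of the undamaged tdTomato library also held Prelp at 1234 CPM (1135 to 1340), above the 486 CPM of all fibroblast-like cells, and Lum at 3564 CPM, while Podn stood at 8.71 and Ogn at 420 CPM there, below the values of all fibroblast-like cells. Within activated-like cells the tdTomato libraries differed in most members, but the clusters were themselves unlike, with Cthrc1 at 16.2 CPM undamaged and 1638 ligated. Fmod stood at 43.0 CPM undamaged and 148 ligated, Aspn at 773 and 1628, Bgn at 3691 and 5639 and Ogn at 445 and 859. Dcn stood at 18316 and 9013 CPM, Prelp at 503 and 174, Podn at 42.1 and 12.9 and Omd at 37.3 and 9.70. In the other fibroblast-like cells Prelp (439 and 432 CPM), Podn (78.1 and 79.7) and Fmod (4.58 and 5.21) were close, while Omd (49.6 and 16.7) was lower and Bgn (2228 and 3069) higher in the ligated library. Omd was thus lower in the ligated library in both of these subsets and in Sca1-high-like cells, with 30.6 and 7.69 CPM. The activated-like cells of the ligated library were deeper, with a median of 7789.5 UMIs against 4031 in the undamaged library, and the part of depth in these differences was not tested.

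Interferon-like cells, which carry interferon response genes, held Aspn at 282, 332 and 439 CPM in the undamaged tdTomato, ligated tdTomato and citrine libraries and at 1559 CPM in the PDGFRa library. Fmod stood at 5.22, 2.26, 2.28 and 54.7 CPM in these cells and Prelp at 595, 430, 507 and 151 CPM in the same order. The interferon-like cells of the PDGFRa library thus lay on the side of its activated-like cells for all of these members.

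**Figure D3:**
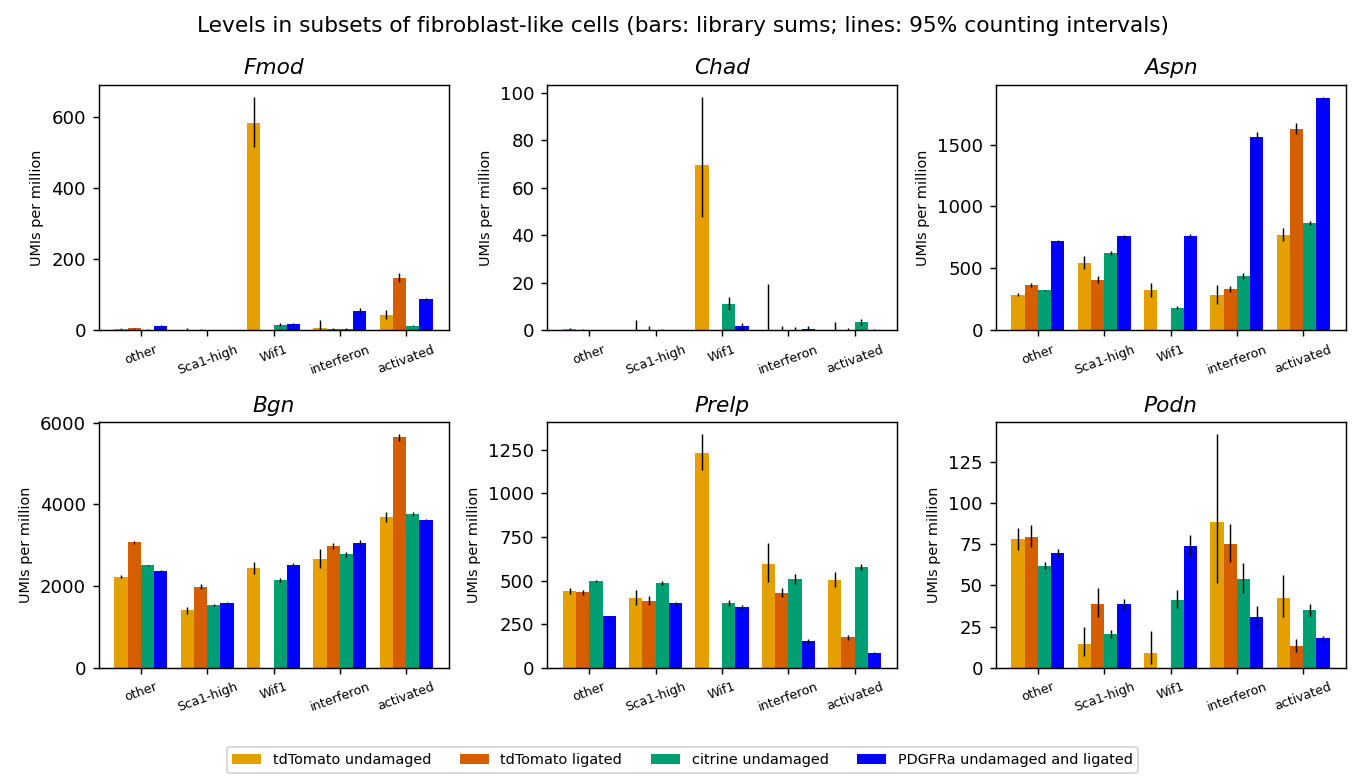
Levels of Fmod, Chad, Aspn, Bgn, Prelp and Podn in CPM, scaled to the total of each subset, by fibroblast-like subset and library, with lines for 95% counting intervals. Fmod and Chad stand out in Wif1-like cells of the undamaged tdTomato library (583 and 69.7 CPM), and Fmod in activated-like cells of the ligated one (148 CPM). The ligated library has no bar for Wif1-like cells because none were called there.

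The hashtagged hearts allow a test within each heart. In the 3 undamaged citrine hearts, activated-like cells (147, 241 and 267 cells) were compared with other fibroblast-like cells, which here means all fibroblast-like cells outside the activated-like clusters. Of the 9 members tested, 5 rose and 3 fell at an adjusted p under 0.05, beside 11.3% of 11748 genes higher and 9.93% lower. Aspn, Bgn, Fmod, Lum and Prelp were higher, Dcn, Ogn and Podn lower, and Chad had too few UMIs for the test. Folds given with an adjusted p come from the fit, which rescales the sums (TMM). They can differ from ratios of the CPM shown.

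Aspn stood at 1208, 775 and 895 CPM in activated-like cells of hearts 1 to 3 and at 320, 268 and 418 CPM in the others, a rise of 2.87 times (log2 1.52, SE 0.09, adjusted p = 8.54e-12). Bgn stood at 3971, 3515 and 3819 against 2183, 2185 and 2551 CPM, a rise of 1.65 times (log2 0.73, SE 0.05, adjusted p = 7.48e-11). Fmod stood at 14.0, 11.6 and 13.7 against 5.08, 1.30 and 1.99 CPM, a rise of 5.43 times (log2 2.44, SE 0.29, adjusted p = 8.25e-07). For Aspn, Bgn and Fmod the lowest activated-like heart was above the highest of the others. The reference cells included Wif1-like cells, which held Fmod at 15.2 CPM over the library. Among citrine fibroblast-like cells 139 held Fmod, and 10 of them held 36.8% of its UMIs. Lum (2320, 2466 and 2268 against 1996, 2094 and 1949 CPM) rose 1.18 times with an adjusted p of 6.97e-05, and Prelp (488, 523 and 569 against 394, 489 and 492 CPM) rose 1.16 times with an adjusted p of 0.00327. The Lum rise turned to a log2 value of -0.05 when the cells were clustered more finely. The Prelp groups overlapped between hearts, and the call was lost without the heart as a block (adjusted p = 0.146).

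Dcn, at 16592, 17163 and 16630 CPM in activated-like against 22168, 23046 and 20724 CPM in other cells, was 1.29-fold lower (log2 -0.37, SE 0.04, adjusted p = 5.15e-08). Ogn, at 949, 722 and 732 against 1200, 1119 and 1090 CPM, was 1.42-fold lower (log2 -0.50, adjusted p = 1.30e-07). Podn, at 48.8, 29.6 and 29.6 against 69.1, 47.4 and 43.7 CPM, was 1.48-fold lower (log2 -0.57, adjusted p = 1.01e-04, and 0.117 without the block). Each of these was lower in 3 of 3 hearts, with overlap between hearts for Podn. Omd, at 30.0, 33.0 and 26.3 against 24.6, 25.6 and 26.3 CPM, did not pass (log2 0.22, adjusted p = 0.219). Activated-like cells of this library were deeper than the others, with a median of 9798 against 7772.5 UMIs in the cells outside every named subset, and the part of depth was not tested.

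In the PDGFRa library 2 of the 4 hearts had at least 10 activated-like cells, and the same contrast within those hearts gave 4 members higher and 4 lower of 9 tested, beside 26.0% of 12743 genes higher and 25.4% lower. Fmod, Aspn, Bgn and Lum rose and Dcn, Prelp, Podn and Omd fell. With 2 hearts, this fit had 1 residual degree of freedom per gene against 10.9 prior degrees of freedom. Its SEs and adjusted p values therefore rest mostly on spread that edgeR shared over genes. The same held for the citrine activated-like and Sca1-high-like fits, with 2 residual against 19.1 and 20.6 prior degrees of freedom. Fmod stood at 76.3 and 98.5 CPM in activated-like cells of hearts 1 and 2 and at 12.2 and 23.6 CPM in the others, a rise of 5.48 times (log2 2.45, SE 0.11, adjusted p = 2.54e-09). Aspn stood at 1601 and 2127 against 768 and 995 CPM, a rise of 2.33 times (log2 1.22, SE 0.05, adjusted p = 8.77e-10). Bgn stood at 3583 and 3751 against 2571 and 2605 CPM, a rise of 1.56 times (log2 0.64, SE 0.04, adjusted p = 1.19e-07). The folds of Fmod, Aspn and Bgn were of similar size to those in the citrine hearts, although the levels of Fmod were higher here in both subsets and the activated-like cells differed in Cthrc1. Lum (2747 and 2574 against 2463 and 2571 CPM) rose 1.16 times in the fit (edgeR, adjusted p = 0.00337). Its mean was 2660 against 2517 CPM, and heart 2 was close to level. With finer clustering its log2 value was -0.10.

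Dcn stood at 7136 and 7090 CPM in activated-like and 18147 and 16693 CPM in other cells, 2.22-fold lower (log2 -1.15, SE 0.04, adjusted p = 3.84e-10). Prelp stood at 70.4 and 93.1 against 275 and 267 CPM, 3.03-fold lower (log2 -1.60, SE 0.08, adjusted p = 9.89e-09). Podn stood at 16.7 and 17.6 against 55.7 and 52.4 CPM, 2.86-fold lower (log2 -1.52, SE 0.08, adjusted p = 1.01e-08). Omd stood at 8.76 and 12.0 against 23.2 and 24.1 CPM, 2.08-fold lower (adjusted p = 5.85e-06). None of these members overlapped between the subsets in these hearts. Ogn, at 1350 and 1748 against 1595 and 1647 CPM, did not pass (log2 0.06, adjusted p = 0.446, edgeR). Its mean was 1549 against 1621 CPM, opposite in sign to the fitted value. Prelp was thus higher in activated-like cells of 3 of 3 citrine hearts and lower in those of 2 of 2 PDGFRa hearts, a difference that was not tested between the libraries.

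**Figure D4:**
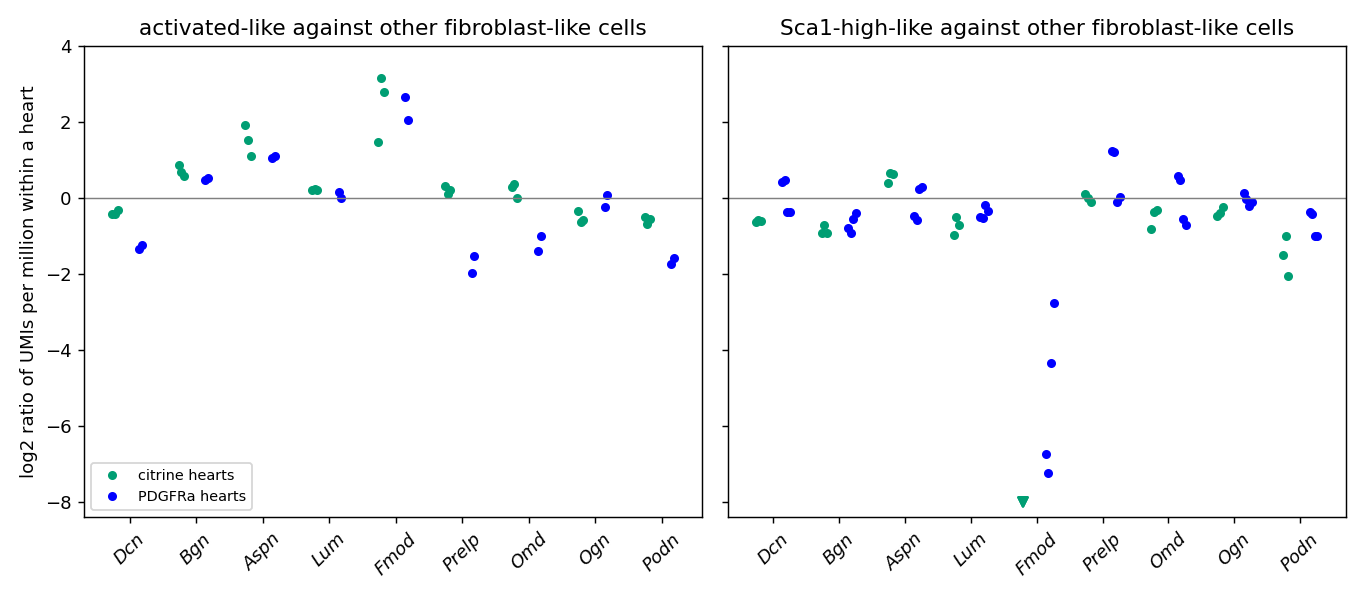
Log2 ratio of each member within each heart, for activated-like and for Sca1-high-like cells against other fibroblast-like cells, with citrine hearts in green and PDGFRa hearts in blue. A triangle marks Fmod in Sca1-high-like citrine cells, where all 3 hearts had 0 UMIs, and Chad is not drawn. Aspn, Bgn and Fmod lie above 0 in activated-like cells of every heart drawn, and Prelp lies above 0 in citrine and below 0 in PDGFRa hearts.

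Sca1-high-like cells, fibroblasts that carry the stem cell antigen gene Ly6a, were compared in the same way. In the citrine hearts (173, 220 and 417 cells) 1 of 9 members rose and 7 fell, beside 15.0% of 11820 genes higher and 15.5% lower. Fmod, 1 of the 7, had no UMI in these cells and entered the fit through the reference cells alone, so its call supports nothing and its p is not given. Podn stood at 25.6, 23.9 and 11.7 CPM in Sca1-high-like and 72.5, 47.8 and 48.3 CPM in other cells, 3.01-fold lower (log2 -1.59, SE 0.13, adjusted p = 9.17e-10). Bgn stood at 1309, 1471 and 1533 against 2495, 2430 and 2913 CPM, 1.85-fold lower (log2 -0.89, SE 0.04, adjusted p = 6.42e-15). Lum stood at 1087, 1547 and 1303 against 2149, 2202 and 2118 CPM, 1.68-fold lower (adjusted p = 5.63e-11). The subsets did not overlap between hearts for Podn, Bgn or Lum.

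Dcn, at 14629, 15618 and 14151 against 22529, 23143 and 21516 CPM, was 1.54-fold lower (adjusted p = 1.41e-15) and Ogn, at 868, 838 and 916 against 1215, 1101 and 1080 CPM, 1.31-fold lower (adjusted p = 8.64e-08). Omd, at 14.9, 21.0 and 22.0 against 26.4, 27.0 and 27.2 CPM, was 1.37-fold lower (adjusted p = 0.00719, and 0.106 with DESeq2). Fmod had 0 UMIs in the Sca1-high-like cells of all 3 hearts against 87, 51 and 83 UMIs (6.72, 2.72 and 3.86 CPM) in the others, at least 11.1-fold lower with the group set at 3 UMIs. Aspn was the member that rose, with 513, 483 and 665 against 393, 307 and 429 CPM (1.45 times, log2 0.54, SE 0.05, adjusted p = 4.41e-09). Aspn was therefore higher than in the reference cells in both the activated-like and the Sca1-high-like subset, while Bgn rose in one and fell in the other. Prelp did not pass (log2 -0.04, adjusted p = 0.575), and Chad, with 0 UMIs against 3.32, 0.853 and 1.21 CPM, was not tested.

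In the 4 PDGFRa hearts (269, 267, 505 and 477 Sca1-high-like cells) 0 of 9 members rose and 4 fell, beside 6.59% of 11317 genes higher and 8.36% lower. The reference cells of hearts 1 and 2 include their activated-like cells. Fmod had 1, 1, 2 and 2 UMIs in Sca1-high-like cells, equal to 0.421, 0.413, 0.516 and 0.553 CPM, against 44.5, 62.6, 10.4 and 3.74 CPM in the others. Within hearts it was 106-fold (95% counting interval 18.9 to 4177), 152-fold (27.2 to 5997), 20.2-fold (5.45 to 169) and 6.76-fold (1.75 to 57.8) lower, and since it entered the fit through the reference cells, its call supports nothing and no p is given. Podn stood at 29.9, 27.6, 33.6 and 53.6 against 38.4, 36.9, 67.0 and 107 CPM, 1.73-fold lower (adjusted p = 0.00416). Bgn stood at 1804, 1699, 1330 and 1608 against 3123, 3241, 1964 and 2124 CPM, 1.67-fold lower (adjusted p = 0.00840). Lum, at 1869, 1819, 1697 and 1564 against 2645, 2627, 1932 and 1966 CPM, was 1.37-fold lower (adjusted p = 0.0283), a call that was lost without heart 1 (adjusted p = 0.135), heart 2 (0.132) or heart 4 (0.0515). Each of these 4 members was lower in 4 of 4 hearts. Without the heart as a block 1 member, Fmod, was called, with adjusted p values of 0.0678 for Bgn, 0.134 for Lum and 0.184 for Podn.

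Dcn, Aspn and Prelp went different ways among the PDGFRa hearts. Dcn stood at 17134, 16427, 17777 and 16880 CPM in Sca1-high-like and at 12804, 11929, 22804 and 21640 CPM in the other cells (adjusted p = 0.928). Aspn stood at 846, 1041, 595 and 774 against 1172, 1555, 509 and 639 CPM (adjusted p = 0.517), and Prelp at 394, 394, 373 and 343 against 166, 171, 405 and 336 CPM (adjusted p = 0.173). Sca1-high-like levels of Dcn and Prelp lay close together in the 4 hearts, while those of the reference cells were spread. Ogn (adjusted p = 0.339) and Omd (adjusted p = 0.702) did not pass.

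Pericyte-like cells, found in the citrine library at 13, 140 and 10 cells per heart, were compared with the 1811, 2653 and 2966 fibroblast-like cells of the same hearts. Of 9 members tested 0 rose and 5 fell, beside 3.76% of 11509 genes higher and 5.61% lower. Dcn stood at 670, 6277 and 3461 CPM in pericyte-like and 21621, 22387 and 20295 CPM in fibroblast-like cells, 10.1-fold lower (log2 -3.34, adjusted p = 1.37e-52, and 3.84e-07 with DESeq2). Lum, at 21.6, 555 and 715 against 2027, 2136 and 1983 CPM, was 6.59-fold lower (adjusted p = 2.76e-22), and Ogn, at 346, 218 and 143 against 1175, 1075 and 1053 CPM, 5.88-fold lower (adjusted p = 6.69e-17). Prelp, at 64.8, 122 and 114 against 403, 493 and 500 CPM, was 5.42-fold lower (adjusted p = 8.53e-11), and Bgn, at 691, 1000 and 1173 against 2358, 2334 and 2684 CPM, 3.30-fold lower (adjusted p = 2.30e-11). The pericyte-like values of Dcn and Lum ranged widely between hearts, which had as few as 10 cells, but stayed below every fibroblast-like value. Dcn was highest in heart 2, which had 140 pericyte-like cells. Mean CPM were 3469 against 21434 for Dcn, 431 against 2049 for Lum and 954 against 2459 for Bgn. The fitted folds of these 3 members were larger than the ratios of these means. In this fit edgeR gave all genes of like abundance the same spread, so these adjusted p values do not carry the wide spread of Dcn itself, which was 3469 CPM ± 2804 (SD, n = 3) in pericyte-like cells. With DESeq2 the adjusted p of the other 4 members lay between 5.57e-08 for Ogn and 2.17e-04 for Lum.

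Aspn stood at 864, 752 and 715 CPM in pericyte-like against 407, 325 and 468 CPM in fibroblast-like cells, higher in 3 of 3 hearts without overlap. It did not pass in edgeR (log2 0.66, SE 0.27, adjusted p = 0.109, and 0.0151 without the heart as a block). Its fitted fold of 1.58 was smaller than the ratio of its means, 777 against 400 CPM. Omd, at 21.6, 12.8 and 0 against 25.1, 26.4 and 26.3 CPM, did not pass (adjusted p = 0.306), nor did Podn, at 64.8, 12.8 and 85.8 against 67.1, 45.4 and 42.3 CPM (adjusted p = 0.281). Podn was lower in 2 hearts and higher in heart 3, with a fitted log2 of -1.06 although its mean over hearts was 54.5 against 51.6 CPM. Fmod had 0 UMIs in the pericyte-like cells, too few cells to set a fold.

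Between the 3 citrine hearts the levels of the abundant members were close. Over fibroblast-like cells Dcn stood at 21434 CPM ± 1058 (SD, n = 3), Bgn at 2459 ± 196, Lum at 2049 ± 78.8, Ogn at 1101 ± 65.2, Prelp at 465 ± 54.1 and Aspn at 400 ± 72.0. The rare members stood at 51.6 ± 13.5 CPM for Podn, 25.9 ± 0.747 for Omd, 3.87 ± 1.84 for Fmod and 1.57 ± 1.19 for Chad. In this order the ranges over hearts of Prelp and Aspn overlapped, as did those of Fmod and Chad, and all other neighbours were separate. Chad rested on 1, 2 and 2 cells of hearts 1 to 3, with 43 UMIs in 1 Wif1-like cell of heart 1, 16 in 2 Wif1-like cells of heart 2 and 26 in 2 activated-like cells of heart 3, too few cells to compare subsets between hearts. The 4 PDGFRa hearts were further apart, with Aspn between 533 and 1521 CPM, Fmod between 2.93 and 58.4 CPM and Dcn between 12234 and 21398 CPM.

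**Figure D5:**
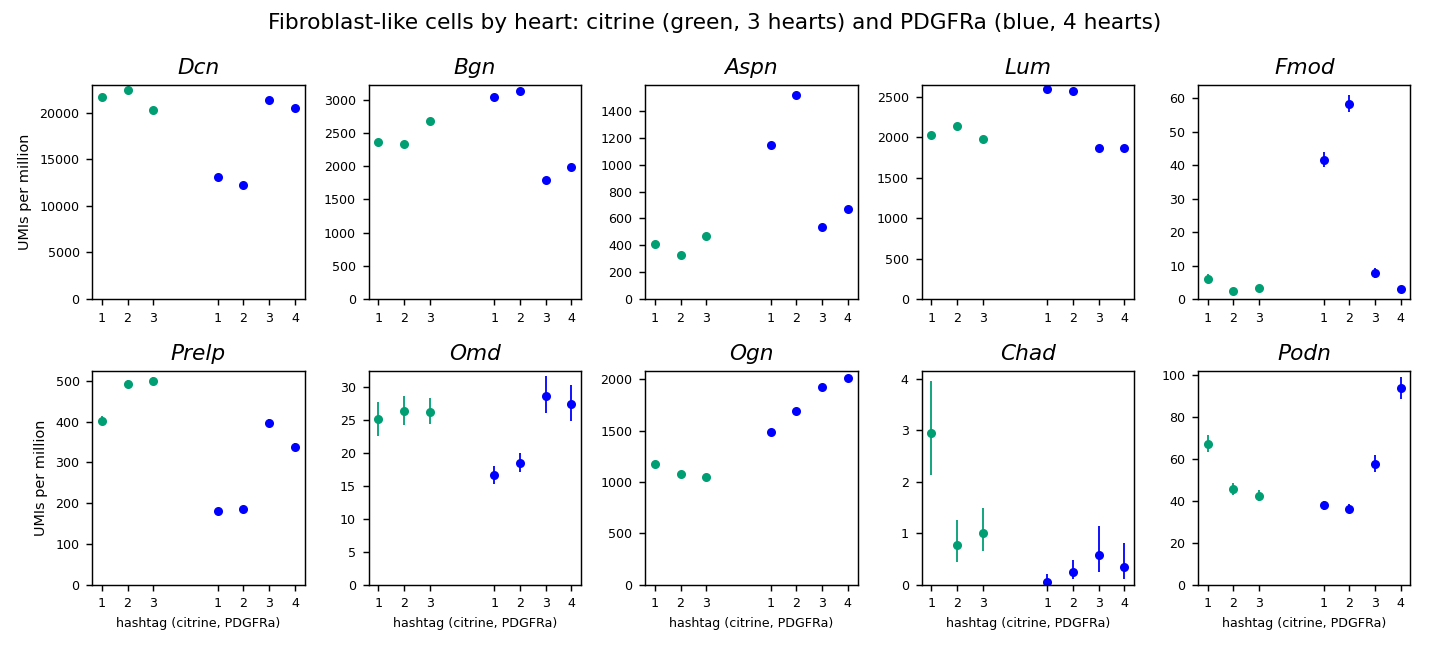
Level of each member in fibroblast-like cells of each hashtagged heart in CPM (linear axis), for 3 citrine hearts (green) and 4 PDGFRa hearts (blue), with lines for 95% counting intervals. Citrine hearts lie close together for Dcn (20295 to 22387 CPM), while PDGFRa hearts span 2.93 to 58.4 CPM for Fmod.

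The genes that act with the members were followed as 7 lists: relatives of the family, enzymes of chondroitin and dermatan chains, enzymes of keratan chains, collagens, processing proteases, receptors and ligands, and other proteoglycan core proteins. The collagen list held fibril chains and also Col6a1, Col6a2, Col6a3, Col12a1 and Col14a1. Between the tdTomato libraries, 2 of 10 listed collagens were over 2-fold higher in ligated cells and 0 lower, with a list median of 0.65 on the log2 scale. These were Col12a1, a collagen that binds fibril surfaces (14.8 CPM undamaged and 42.4 ligated), and Col1a1, the main fibril chain and also a marker used to name fibroblasts (989 and 2080). Of 5 relatives 2 were over 2-fold lower and 0 higher, led by Epyc, a class III member of cartilage, at 31.9 and 1.03 CPM (30.9-fold lower, 18.4 to 55.9). Of 15 receptors and ligands 1 was higher and 3 lower, with Wisp1, a matricellular ligand known to bind decorin and biglycan, at 1.43 and 35.4 CPM. Of 16 other core proteins 1 was higher and 3 lower, and Acan, the large cartilage proteoglycan, had 0 and 25 UMIs, at least 5.22-fold higher. None of the 19 chondroitin and dermatan chain enzymes, 7 keratan chain enzymes or 9 proteases passed 2-fold.

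For the contrasts within hearts, the shares of all genes called are repeated beside the lists. Among activated-like cells of the citrine hearts 11.3% of all genes rose and 9.93% fell. In the PDGFRa hearts these shares were 26.0% and 25.4%. Of 10 listed collagens, 6 rose and 2 fell in the citrine hearts (median log2 0.38, against -0.01 over all genes). Col12a1 stood at 2.02 and Col6a3 at -0.76 there. In the PDGFRa hearts 10 of 10 rose (median 1.26, against -0.01), with Col12a1 at 2.55 and Col1a1 at 1.65. Chondroitin and dermatan chain enzymes rose in 7 and fell in 2 of 19 in citrine, and rose in 11 and fell in 2 of 20 in PDGFRa hearts. Wisp1 rose by a log2 of 3.46 in citrine and 2.73 in PDGFRa activated-like cells, and Adamts5, a protease that cleaves proteoglycan cores, fell by 1.06 and 2.95. Of the relatives, 3 of 6 rose in PDGFRa activated-like cells, Epyc by 3.52, Podnl1 by 2.10 and Lrrc17 by 0.69, and 1 of 4 rose and 1 fell in citrine ones. Epyc was thus lower in ligated than undamaged tdTomato fibroblast-like cells and higher in activated-like than other cells of the PDGFRa hearts. Keratan chain enzymes rose in 1 and fell in 2 of 8 in citrine, and rose in 1 and fell in 3 of 8 in PDGFRa hearts, counts near the shares over all genes. Chst1, a keratan sulfotransferase, fell by 2.95 in the latter.

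In Sca1-high-like cells of the citrine hearts 15.0% of all genes rose and 15.5% fell. Of the listed collagens 7 fell and 1 rose there, and 9 of 15 other core proteins fell and 2 rose. Chst1 rose by a log2 of 2.61 in these cells, and by 2.85 in the PDGFRa hearts. In Sca1-high-like cells of the PDGFRa hearts 6.59% of all genes rose and 8.36% fell. There 2 of 10 listed collagens fell and 0 rose, and 5 of 15 core proteins fell and 1 rose. In citrine pericyte-like cells, where 3.76% rose and 5.61% fell, 8 of 10 listed collagens and 6 of 9 proteases fell, while 1 protease rose. Of these lists, Col1a1, Col1a2, Col3a1 and Pcolce are also markers that named fibroblast-like cells, so these counts are not independent of the naming. Chst2, another keratan sulfotransferase, rose in the pericyte-like cells by a log2 of 1.92, as did Itga1, a collagen receptor, by 4.16.

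Across the 43 fibroblast-like clusters of at least 50 cells, centred on the mean of each library, Pearson correlations of log2(CPM + 1) were computed to name the genes with the most similar pattern. Clusters of 1 library share its cells' preparation and depth, so these values describe the clusters and carry no test. The closest genes were Aldh1a1 for Dcn (0.91), Itgbl1 for Bgn (0.89), Fstl1 for Aspn (0.87), Hexa for Lum (0.83), Mpzl1 for Fmod (0.89), Ghr for Prelp (0.85), Bicc1 for Ogn (0.87), Wif1 for Chad (0.89) and Rgs17 for Podn (0.90). Among member pairs, Dcn and Podn (0.70), Bgn and Lum (0.68), Bgn and Aspn (0.64) and Fmod and Chad (0.58) varied in the same direction, and Dcn and Aspn (-0.67) and Aspn and Podn (-0.61) in opposite directions. Over all 49 clusters, mural cells included, Dcn was closest to Pdgfra (0.97), Lum to Serpinf1 (0.98), Ogn to Fbln5 (0.97) and Aspn to Postn (0.77).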

How the data were processed

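Per the labels, the authors made the deposited count tables with Cell Ranger on a modified mm10 genome, and the file headers of the citrine and PDGFRa matrices name version 3.0.2. The submitters' processing notes also name Seurat 2.1. The tables hold UMI counts per gene and cell. The members and gene lists were chosen with earlier results of these data known.

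A cell was kept if it had 500 genes and 1000 UMIs or more and a mitochondrial share of no more than 10%. Clustering was done per library in scanpy 1.11.5 (2000 variable genes, 30 principal components, 20 neighbours, Leiden resolution 1). It left out the members and the listed genes that were no marker. Listed genes that were also markers (Col1a1, Col1a2, Col3a1, Pcolce, Prg4, Cspg4 and Kdr) were not left out. A class needed at least 3 of its markers in at least 25% of a cluster's cells, and a fibroblast-like subset needed at least 60% of its markers and its naming gene over 2-fold, the latter set after marker folds were seen. Rebuilt names may differ from those of the study. No doublet caller was run, and cells with several hashtags were left out of the heart values only. Hashtags above 1% of the tag UMIs were used, and a cell was given to a heart when exactly 1 was above its Otsu threshold.

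Levels are UMIs summed and scaled to 1000000 (CPM) with exact Poisson intervals at 95%. Ratios used features with at least 20 UMIs and 1 added UMI. Contrasts within hearts used edgeR 4.0.16 (quasi-likelihood, TMM, filterByExpr) on counts summed per heart and subset, with heart as a block because both arms come from the same heart, and Benjamini-Hochberg adjustment over all genes tested. A heart needed at least 10 cells of a subset. SEs were derived from the log2 value and the F statistic. P-values measure the spread between hearts as edgeR shares it over genes, which in the pericyte-like contrast was completely (infinite prior degrees of freedom), and intervals cover counting error only. The fits were tested on simulated counts. Alternatives were DESeq2 1.42.0, other filters, clusterings and scalings, and each heart left out. The named genes were all 10 members and, of each list, up to 3 called genes per direction with the largest log2 ratio. A likeness result for Omd is not reported here.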

Additional observations from a re-analysis of the deposited data

Results flagged for a closer look

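Prelp was singled out because its difference between activated-like and other fibroblast-like cells had opposite signs in the citrine and PDGFRa hearts. Its log2 value was 0.21 in the citrine library, higher in 3 of 3 hearts, and -1.60 in the PDGFRa library, lower in 2 of 2 hearts. The PDGFRa value minus the citrine value was -1.81. The difference was not tested. The citrine rise was lost without the heart as a block (adjusted p = 0.146, edgeR). The reporters of these libraries differ. In the undamaged tdTomato library Prelp stood at 503 CPM in activated-like cells and at 484 CPM in all fibroblast-like cells outside them. In the ligated tdTomato library it stood at 174 and 421 CPM, with 1 library a state. Reporter, state of the hearts and library cannot be told apart in this design. The activated-like cells were unlike in Cthrc1, at 23.8 CPM in the citrine and 1769 CPM in the PDGFRa library. Activated-like cells had a median of 9798 UMIs in the citrine and 16462 in the PDGFRa library.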

How the results depend on the processing

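Counts of members past a threshold stayed within 1.5 times of the reported count in 41 of 42 alternatives for the contrasts within hearts and in 9 of 10 for the tdTomato ratio. The exceptions were the PDGFRa Sca1-high-like contrast without the replicate block, with 1 member called, and the tdTomato ratio with at least 100 UMIs required, with 1 member past 2-fold, because Chad no longer entered. The members behind a similar count could change. Without Wif1-like cells Fmod was past 2-fold in the tdTomato ratio (log2 2.09), and Chad, with 2 and 0 UMIs, no longer entered. Without activated-like cells Fmod was also past 2-fold (log2 -2.94). With each heart left out in turn, the members called numbered 5 to 5 in the pericyte-like, 8 to 9 in the citrine activated-like, 8 to 9 in the citrine Sca1-high-like and 3 to 4 in the PDGFRa Sca1-high-like contrast. Of 377 values of single members in these contrasts, 359 kept direction and side of the threshold, 14 lost it, 2 gained it and 2 reversed. The reversed values were those of Lum in activated-like cells at Leiden resolution 2, with -0.05 in the citrine (adjusted p = 0.646, edgeR) and -0.10 in the PDGFRa library (adjusted p = 0.122, edgeR), and the cause was not tested. The heart block also ended the calls of Prelp (0.146) and Podn (0.117) when it was dropped from the citrine activated-like contrast. Leaving out a heart of the PDGFRa activated-like contrast was not run, since 1 heart would remain, and at Leiden resolution 0.5 the citrine library had no activated-like cluster. Single-member ratios and levels were less stable. Of 98 values of the tdTomato ratio, 66 stayed within the main counting interval and 32 moved out of it. Of 110 levels and shares of cells with a UMI, 53 stayed within the main interval or SD and 57 moved. These include shares after thinning cells to 1000 UMIs. Chad levels rest on few cells: in citrine cells 0.964 CPM became 0.568 at a limit of 5% mitochondrial UMIs, and the mean over citrine hearts went from 1.57 to 0.663 CPM when a heart's tag had to hold 70% of a cell's tag UMIs. Leaving out cells with several hashtags, chosen after seeing the data, gave 1.34 CPM.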

Other observations

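The 4 PDGFRa hearts, whose state the labels do not tie to a hashtag, lay apart in several members over fibroblast-like cells. Hearts 1 to 4 held Aspn at 1150, 1521, 533 and 673 CPM, Bgn at 3036, 3137, 1786 and 1994, and Fmod at 41.6, 58.4, 7.65 and 2.93. They held Lum at 2594, 2572, 1866 and 1864 CPM. For these members hearts 1 and 2 were above hearts 3 and 4. Dcn stood at 13089, 12234, 21398 and 20437 CPM, Prelp at 181, 186, 396 and 338, Podn at 37.8, 36.2, 57.7 and 93.6, and Omd at 16.6, 18.5, 28.7 and 27.5. For these the order was the opposite. Ogn stood at 1482, 1694, 1923 and 2011 CPM and Chad at 0.0555, 0.251, 0.577 and 0.349 CPM. The same hearts had 992, 980, 1 and 3 activated-like cells and 110, 85, 353 and 367 Wif1-like cells.

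A cluster of 8 epicardial-like cells in the citrine library held 19 Fmod UMIs, equal to 260 CPM, and Prelp at 301 CPM beside Dcn at 5929 CPM. The fibroblast-like cells of that library held Fmod at 3.25 CPM.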
